A study of Mus musculus with 2 samples.

Results

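The transcripts examined here are 42 interferon-stimulated genes of the mouse, a set of interferon-induced effectors and nucleic acid sensors without the interferon regulatory factors. A gene was measured through the probe sets that the array's annotation assigns to it alone, and 38 of the 42 could be measured, among 19935 measured genes in all. Gbp2, Isg15 and Ifi204 were represented only by probe sets that also name another gene, and Ifi44 by no probe set that names it alone, so these 4 have no value here. The cells were bone marrow mononuclear cells of 6-week-old mice of the ddY strain, sorted on the surface receptors RANK and c-Fms, which bind RANKL and M-CSF in osteoclast formation. RANKhighFmslow cells (high RANK, low c-Fms) were hybridised to 1 array and RANKlowFmshigh cells (low RANK, high c-Fms) to another. The labels name no agent and no engineered allele for either population, and they do not say how many mice each array represents. With 1 array per population no replicate error could be measured and nothing was tested; values and counts by size are given.

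Type I interferons bind the receptor chains Ifnar1 and Ifnar2, and the kinases Jak1 and Tyk2 then activate Stat2. Stat2 acts with Irf9 in the complex ISGF3, which binds the interferon-stimulated response element in the promoters of its target genes. Type II interferon acts through Ifngr1 and Ifngr2, and its target promoters carry the gamma-activated sequence. The products bind foreign RNA, cleave it, block virus entry or release, or tag and degrade proteins, and many are also made at a low level in resting blood cells.

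Intensities are in arbitrary units on a linear scale, and each difference is the log2 intensity in RANKhighFmslow cells minus that in RANKlowFmshigh cells. A gene counted as higher or lower when its difference reached 1, which is 2-fold, and if its higher intensity reached 93.6, the median of all probe sets on both arrays. The 95th percentile of 1178 olfactory and vomeronasal receptor genes, 83.6 on the RANKhighFmslow array and 81.8 on the RANKlowFmshigh array, served as a guide to background. The sort labels were checked first. Csf1r, which encodes c-Fms, stood at 164 in RANKhighFmslow cells and at 821 in RANKlowFmshigh cells, 5.02-fold lower, as the label says. Tnfrsf11a, which encodes RANK, stood at 104 in RANKhighFmslow cells and at 119 in RANKlowFmshigh cells, so the name RANKhighFmslow rests on the sort and not on this transcript.

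Promoter sequence was examined because the genes share their inducer. RefSeq promoter windows (GRCm38.p6) of 300 bases, from 250 before to 50 after the annotated start, were found by symbol for 32 of the 42 genes. They were not found for Oas2, Mx1, Mx2, Zbp1, Dhx58, Ifi204, Usp18, Parp9, Parp14 and Rtp4. The core of the response element, GAAANNGAAA, was searched on both strands and occurred in 17 of the 32 genes (53.1%, any annotated start), against 1079 of all 27025 genes with a window (3.99%). The core of the gamma-activated sequence, TTCNNNGAA, which reads the same on both strands, occurred in 10 of the 32 (31.2%), against 2582 of the 27025 (9.55%). A match is a run of letters and not a measured binding site. The stretches of 150 bases before the start are shown for the genes at least 2-fold apart that have a window, and for Ifitm1 and Bst2, which are described below with their families. The letters run 5′ to 3′ on the gene's strand, and capitals mark the matches to either motif. Isg20 has 3 annotated starts in the table and Trim30a has a pair of them, and the first listed is shown for each. The stretches lie at chr7:78913274-78913423 (plus strand) for Isg20, chr12:26456453-26456602 (minus) for Rsad2, chr7:140967926-140968075 (plus) for Ifitm1, chr8:71537473-71537622 (minus) for Bst2, chr7:104465194-104465343 (minus) for Trim30a, chr5:114896784-114896933 (plus) for Oasl2 and chr7:140955962-140956111 (minus) for Ifitm2.
Isg20: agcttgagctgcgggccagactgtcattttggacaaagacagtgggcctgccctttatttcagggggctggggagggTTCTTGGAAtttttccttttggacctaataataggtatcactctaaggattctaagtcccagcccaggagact
Rsad2: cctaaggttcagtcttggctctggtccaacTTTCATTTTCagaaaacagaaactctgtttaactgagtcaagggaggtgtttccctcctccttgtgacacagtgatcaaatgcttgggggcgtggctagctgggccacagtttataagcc
Ifitm1: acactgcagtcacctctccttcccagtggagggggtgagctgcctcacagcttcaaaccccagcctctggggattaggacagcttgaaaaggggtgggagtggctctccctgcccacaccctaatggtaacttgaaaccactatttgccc
Bst2: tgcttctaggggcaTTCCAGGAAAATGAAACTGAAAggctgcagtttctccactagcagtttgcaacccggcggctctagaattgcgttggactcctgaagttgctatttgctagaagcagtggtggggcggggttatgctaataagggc
Trim30a: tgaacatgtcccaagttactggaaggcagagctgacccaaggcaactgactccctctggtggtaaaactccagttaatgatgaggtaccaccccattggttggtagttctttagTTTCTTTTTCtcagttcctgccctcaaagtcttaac
Oasl2: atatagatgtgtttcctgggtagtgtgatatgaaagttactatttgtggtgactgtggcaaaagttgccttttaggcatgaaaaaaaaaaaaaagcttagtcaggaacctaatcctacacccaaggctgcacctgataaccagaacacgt
Ifitm2: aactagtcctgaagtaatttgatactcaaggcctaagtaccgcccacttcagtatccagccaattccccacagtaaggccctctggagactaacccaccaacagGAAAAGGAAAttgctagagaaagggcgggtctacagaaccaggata
The Rsad2 match lies 120 to 111 bases before the start and the Ifitm2 match 46 to 37 bases before it. In Trim30a the match lies 36 to 27 bases before the start, on the strand opposite to the gene, as in Rsad2. Bst2 holds GAAANNGAAA as an overlapping pair, and its gamma-activated core overlaps the first of them; the motifs also overlap in Ifitm3. Isg20 holds only TTCNNNGAA in this stretch, 73 to 65 bases before the start, and neither motif is in the stretches of Oasl2 and Ifitm1.

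Promoters with the response element core were found on both sides of zero. Of the 29 measured genes with a window, 9 had a difference above 0 and 4 of these held GAAANNGAAA (44.4%), and 20 had a difference below 0 and 11 of these held it (55%). TTCNNNGAA was held by 3 of the 9 (33.3%) and by 7 of the 20 (35%). Over all 32 genes there were 26 matches to GAAANNGAAA, overlapping ones counted singly, of which 20 lay before the start and 6 after it.

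**Figure D1:**
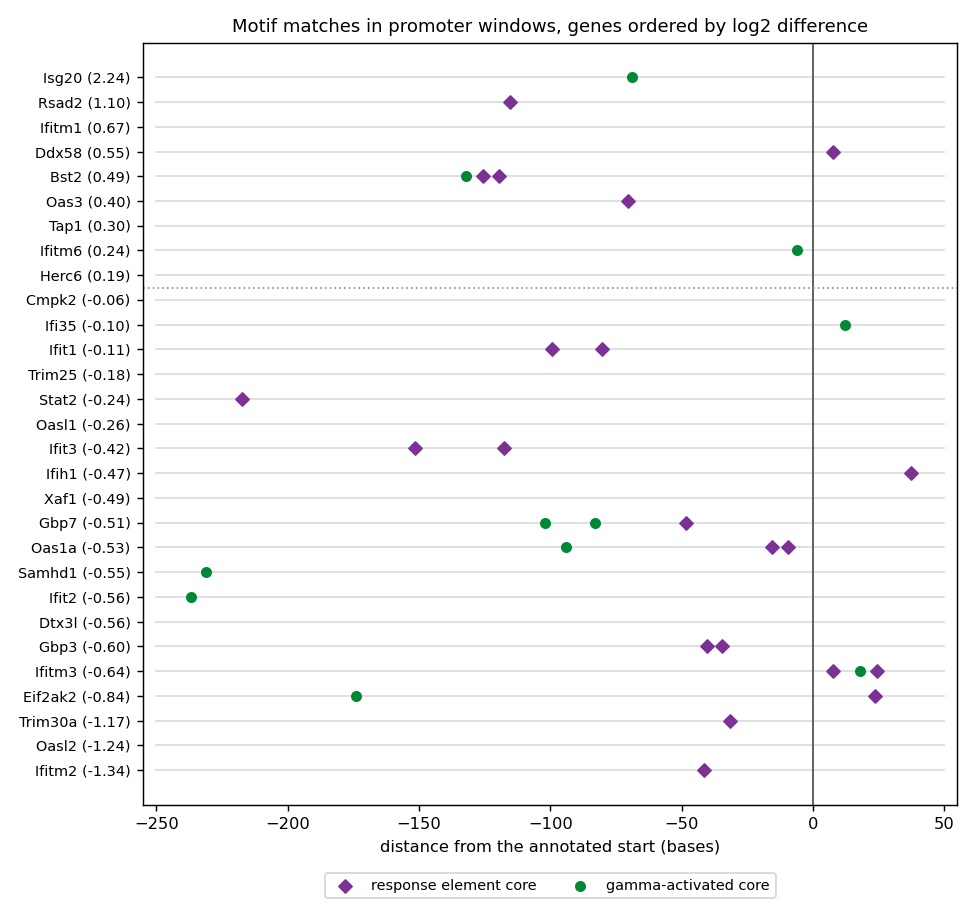
Positions of motif matches in the first listed RefSeq promoter window of the 29 measured genes that have one. The horizontal axis is the distance from the annotated start in bases, each row is a gene with its log2 difference (RANKhighFmslow minus RANKlowFmshigh) in parentheses, and the dotted line divides genes above 0 from genes below 0. Diamonds are response element cores and circles gamma-activated cores, and both kinds stand above and below the dotted line.

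Most of the interferon-stimulated genes were lower in RANKhighFmslow cells, but the largest single difference went the other way. Of the 38 measured genes, 28 (73.7%) had a difference below 0, against 47% of all measured genes. The median was -0.48 (interquartile range -0.68 to 0.08), beside 0.01 for all measured genes and -0.01 for those that passed the filter. Of 37 genes that passed the level filter, 5 were at least 2-fold lower (13.5%), beside 4.26% of the 11089 genes that passed it in all. These were Mx1, Ifitm2, Oasl2, Zbp1 and Trim30a. Isg20 and Rsad2, 2 genes (5.41%), passed the threshold upward, close to the background of 4.34%. Parp14, at -0.99, lay just inside the threshold.

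A guide to how far probe sets of the same gene disagree comes from genes with exactly 2 probe sets above the filter. Over 509 such genes the gap between the 2 differences had a median of 0.19 and a 90th percentile of 0.66. Of the 38 measured genes 13 were farther from 0 than that percentile, 3 of them above 0 and 10 below it. This holds for 18.7% of the genes that passed the filter. It describes disagreement between probe sets and leaves out the spread between samples, which is not known.

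**Figure D2:**
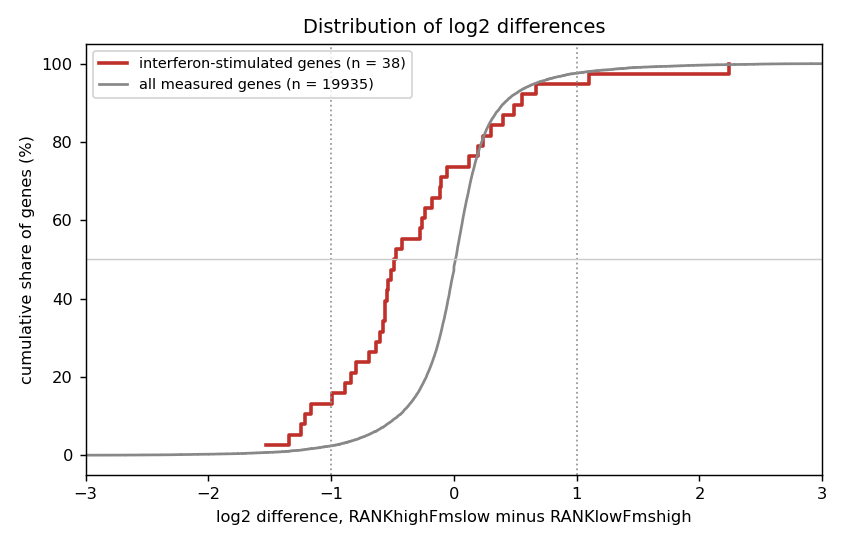
Cumulative share of genes (vertical axis, %) against the log2 difference, RANKhighFmslow minus RANKlowFmshigh, for the 38 measured interferon-stimulated genes and all 19935 measured genes. Dotted lines mark 2-fold; the curve of the interferon-stimulated genes crosses 50% near -0.48 and that of all genes near 0.01, and the first lies well above the second at 0 and meets it only to the right of 0.

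The enzymes that act on nucleotides and nucleic acids stood on both sides of zero, but only the upward differences reached 2-fold. Isg20, a 3′ to 5′ exonuclease that degrades single-stranded RNA, stood at 1353 in RANKhighFmslow cells and at 286 in RANKlowFmshigh cells, 4.73-fold higher. It ranked 52 from the top among the 11089 genes that passed the filter. Rsad2, which encodes viperin, the enzyme that makes a chain-terminating nucleotide, stood at 612 in RANKhighFmslow cells and at 286 in RANKlowFmshigh cells, 2.14-fold higher. Samhd1, which hydrolyses deoxynucleotides, lay on the other side at 2299 in RANKhighFmslow cells against 3356 in RANKlowFmshigh cells (-0.55). This difference, from 1 probe set, was smaller than the 90th percentile of the gap between probe sets, 0.66. Cmpk2, a mitochondrial nucleotide kinase whose gene is the next protein-coding gene to Rsad2 on chromosome 12, stood at 67.1 in RANKhighFmslow cells and 69.9 in RANKlowFmshigh cells. Both values were below the background guide, so the direction of its difference is not read. It is counted all the same among the 28 genes below 0, among the 20 of them with a promoter window, and in the median. Cmpk2 was the only measured gene of the set that did not pass the level filter.

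The Mx GTPases, which trap viral nucleoprotein complexes, were both lower. Mx1 stood at 87.9 in RANKhighFmslow cells and at 254 in RANKlowFmshigh cells, 2.89-fold lower and the lowest difference of the set (-1.53). The value in RANKhighFmslow cells was only just above the background guide of 83.6. Mx1 is disrupted in many laboratory mouse strains, and the allele of these ddY mice is not given in the sources used here. Mx2 stood at 107 in RANKhighFmslow cells and at 198 in RANKlowFmshigh cells (-0.89).

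**Figure D3:**
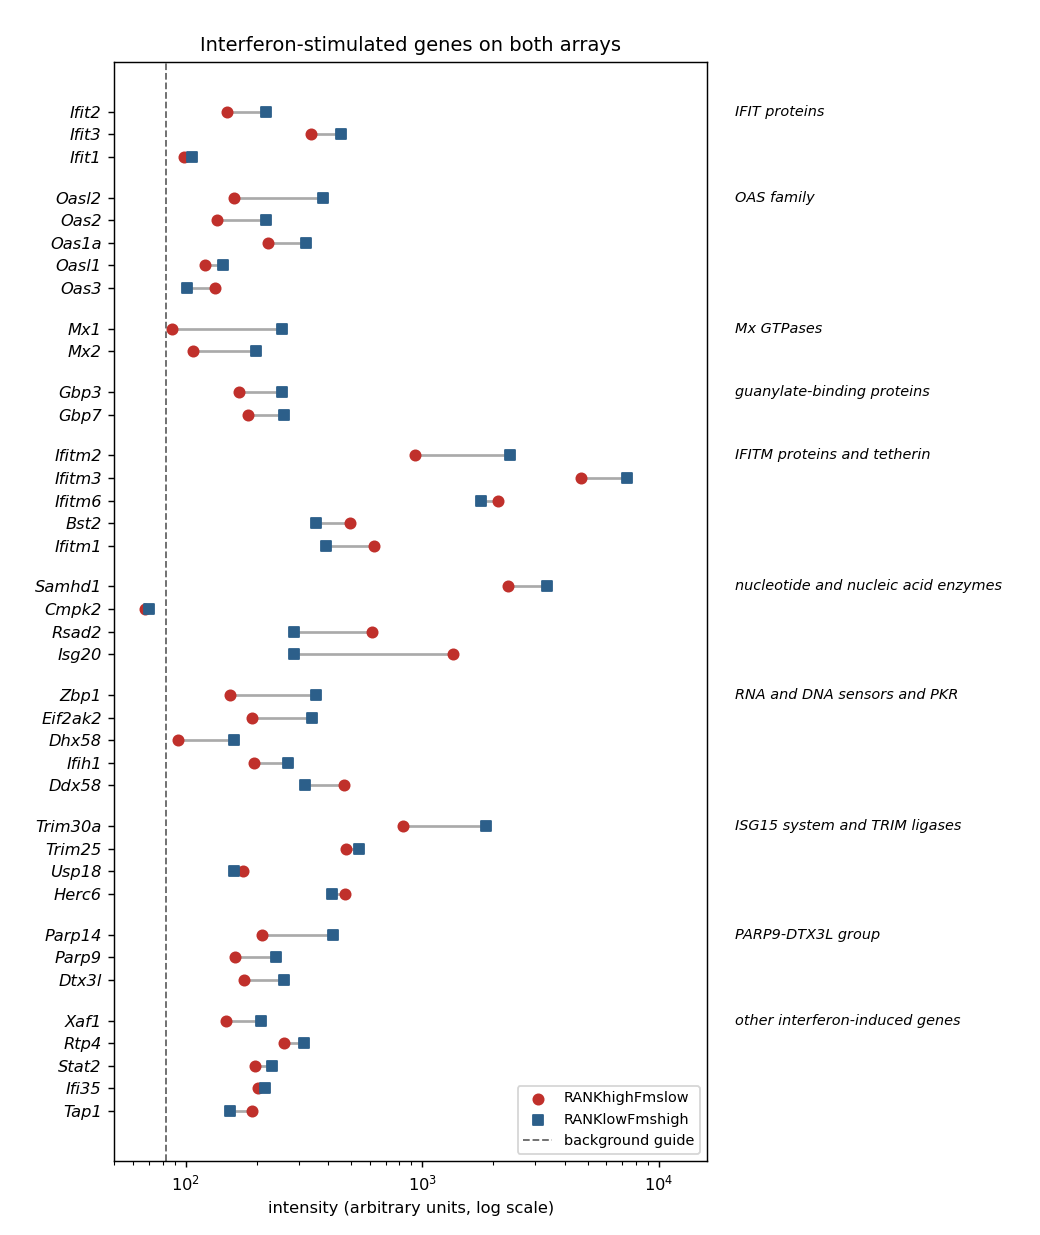
Intensity on both arrays (horizontal axis, arbitrary units, log scale) of the 38 measured interferon-stimulated genes, grouped by role. Circles are RANKhighFmslow cells and squares RANKlowFmshigh cells, 1 array each without error bars, and the dashed line is the pooled background guide at 82.5; circles lie left of squares for 28 genes, and the widest gap is that of Isg20, with its circle on the right.

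Of the 2′-5′ oligoadenylate synthetase family 4 of 5 genes had lower values in RANKhighFmslow cells. The synthetases make the second messenger that activates RNase L, whereas mouse Oasl1 holds back the translation of Irf7. Oasl2 stood at 160 in RANKhighFmslow cells and at 380 in RANKlowFmshigh cells, 2.37-fold lower. Oas2 stood at 136 in RANKhighFmslow cells against 219 in RANKlowFmshigh cells (-0.69). Oas1a had 222 in RANKhighFmslow cells and 321 in RANKlowFmshigh cells (-0.53), and other Oas1 genes are similar enough in sequence that its probes may not separate them. The exception was Oas3, the largest synthetase, at 134 in RANKhighFmslow cells against 102 in RANKlowFmshigh cells (0.40). Oas2 and Oas3 are neighbours on chromosome 5 and stood on opposite sides of zero. The Oas3 difference, however, was smaller than the 90th percentile of the gap between probe sets, 0.66. Oasl1, next to Oasl2, had 121 in RANKhighFmslow cells and 144 in RANKlowFmshigh cells (-0.26).

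The IFIT proteins, which bind foreign RNA at its 5′ end or hold back translation, had small differences in the same direction. Ifit2 stood at 149 in RANKhighFmslow cells and 219 in RANKlowFmshigh cells (-0.56). Ifit3 had 340 in RANKhighFmslow cells against 455 in RANKlowFmshigh cells (-0.42), and a near-identical copy of it in the mouse genome may share its probes. Ifit1 had 98.1 in RANKhighFmslow cells and 106 in RANKlowFmshigh cells (-0.11), both not far above the background guide. None of the 3 reached 2-fold.

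The IFITM genes, whose products block the fusion of virus with endosomal membranes, alternated in direction along chromosome 7. Their order there is Ifitm2, Ifitm1, Ifitm3 and Ifitm6, with no other protein-coding gene between them in the reference annotation. Ifitm2 averaged 929 in RANKhighFmslow cells and 2352 in RANKlowFmshigh cells over 3 probe sets, 2.53-fold lower. Its 3 probe sets gave differences of -1.39, -1.36 and -1.27. Ifitm1, its neighbour, averaged 623 in RANKhighFmslow cells and 392 in RANKlowFmshigh cells (0.67), and its 2 probe sets gave 0.55 and 0.78. The gap between these genes is thus wider than that between the probe sets of either gene. Ifitm3, the best studied of the family for restriction of influenza virus, stood at 4692 in RANKhighFmslow cells and at 7297 in RANKlowFmshigh cells (-0.64). Ifitm6 stood at 2098 in RANKhighFmslow cells and at 1776 in RANKlowFmshigh cells (0.24). Ifitm3 and Ifitm6 have 1 probe set each, and both differences were smaller than the 90th percentile of the gap between probe sets, 0.66. The alternation past Ifitm1 is therefore less certain than the contrast of Ifitm2 with Ifitm1. Ifitm2 and Ifitm3 have similar coding sequences, which their probe sets may not fully separate. As the sequences above show, the response element core stands before the start of Ifitm2 and not of Ifitm1. Ifitm3, whose sequence is not shown, holds the core 3 to 12 and 20 to 29 bases after its start. Of the measured genes with a window, 44.4% of those above 0 and 55% of those below 0 held it. The part of the core in the Ifitm differences was not tested.

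**Figure D4:**
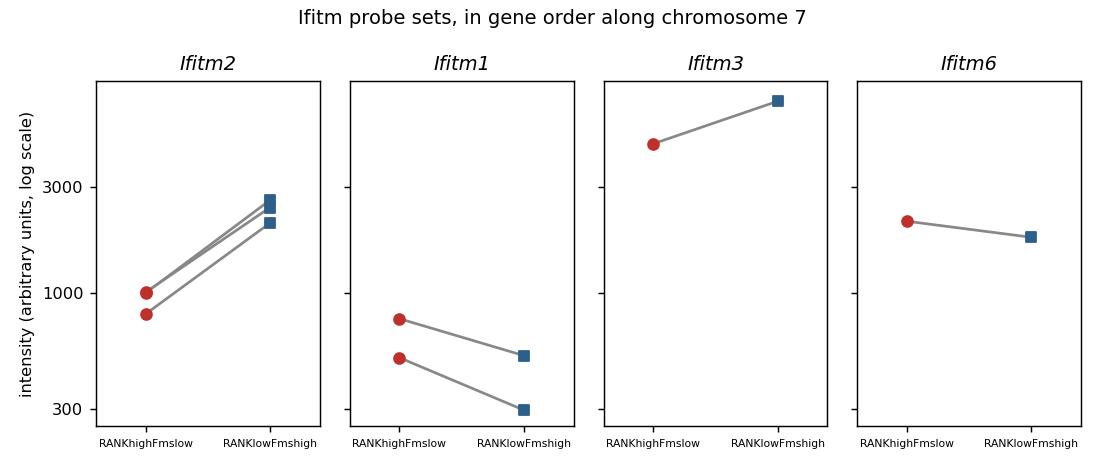
Intensity (vertical axis, arbitrary units, log scale) of each probe set of the 4 Ifitm genes in RANKhighFmslow cells (circles) and RANKlowFmshigh cells (squares), with a line for each probe set and panels in gene order along chromosome 7. All 3 lines of Ifitm2 and the line of Ifitm3 climb to the right, and both lines of Ifitm1 and the line of Ifitm6 descend.

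Bst2, or tetherin, holds budding virus at the cell surface. It stood at 497 in RANKhighFmslow cells and at 354 in RANKlowFmshigh cells (0.49), a difference smaller than the 90th percentile of the gap between probe sets, 0.66. Bst2 is also a surface antigen of plasmacytoid dendritic cells in the mouse. Of 5 other markers of those cells 4 were measured and all were above 0, 1 of them (Cox6a2, 491 in RANKhighFmslow cells and 184 in RANKlowFmshigh cells) by 2-fold or more. The summed intensity of the 4 was 1018 in RANKhighFmslow cells and 518 in RANKlowFmshigh cells, with single values from 115 to 491 in RANKhighFmslow cells and from 83.3 to 184 in RANKlowFmshigh cells. Their part in the Bst2 difference was not tested.

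Of 5 measured sensors of nucleic acids 4 had lower values in RANKhighFmslow cells, and the gene of RIG-I did not. Zbp1, which recognises Z-form nucleic acid and can start necroptosis, stood at 154 in RANKhighFmslow cells and at 356 in RANKlowFmshigh cells, 2.32-fold lower. Eif2ak2, the double-stranded RNA kinase PKR that halts translation, stood at 190 in RANKhighFmslow cells against 341 in RANKlowFmshigh cells (-0.84). Dhx58, which encodes LGP2, had 92.7 in RANKhighFmslow cells and 161 in RANKlowFmshigh cells (-0.79). These 3 are farther from 0 than the 90th percentile of the gap between probe sets. Ifih1, which encodes MDA5, the sensor of long double-stranded RNA, had 195 in RANKhighFmslow cells and 270 in RANKlowFmshigh cells (-0.47). Ddx58, which encodes RIG-I, the sensor of RNA with a 5′ triphosphate, had 467 in RANKhighFmslow cells and 319 in RANKlowFmshigh cells (0.55). The related RNA helicases of this family therefore stood on both sides of zero, but the differences of Ifih1 and Ddx58 were smaller than that percentile.

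In the ISG15 system, which attaches a ubiquitin-like tag to proteins, and among the TRIM ligases, Trim30a stood out. Trim30a, which in the mouse restrains Toll-like receptor signalling, stood at 831 in RANKhighFmslow cells and at 1867 in RANKlowFmshigh cells, 2.25-fold lower. It belongs to a cluster of similar genes that its probe set may not separate. Usp18, the protease that removes the tag and dampens Ifnar2 signalling, had 174 in RANKhighFmslow cells and 160 in RANKlowFmshigh cells (0.12). Herc6, the main ligase for the tag in the mouse, had 473 in RANKhighFmslow cells and 414 in RANKlowFmshigh cells (0.19). Trim25, the ligase that activates RIG-I, had 478 in RANKhighFmslow cells and 541 in RANKlowFmshigh cells (-0.18). The differences of Usp18 and Trim25 were smaller than the median gap between probe sets of a gene, 0.19, and that of Herc6 was about equal to it.

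Genes of the PARP9 and DTX3L complex, which ADP-ribosylates and ubiquitinates proteins in the interferon response, lay close together. Parp9 stood at 162 in RANKhighFmslow cells and 241 in RANKlowFmshigh cells (-0.58), and its neighbour Dtx3l at 177 in RANKhighFmslow cells and 260 in RANKlowFmshigh cells (-0.56). Parp14, on the other side of Dtx3l on chromosome 16, had 211 in RANKhighFmslow cells and 420 in RANKlowFmshigh cells, 1.99-fold lower. All 3 adjacent genes had negative differences.

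The guanylate-binding proteins attack the vacuoles of intracellular pathogens. Gbp3 stood at 168 in RANKhighFmslow cells against 255 in RANKlowFmshigh cells (-0.60), and Gbp7 at 183 in RANKhighFmslow cells against 260 in RANKlowFmshigh cells (-0.51). Both belong to the cluster on chromosome 3, where Gbp5 was below the background guide on both arrays. In the second cluster, on chromosome 5, Gbp8 had 185 in RANKhighFmslow cells and 103 in RANKlowFmshigh cells (0.84). Gbp4 of that cluster had 178 in RANKhighFmslow cells and 112 in RANKlowFmshigh cells (0.68). Of the genes above the guide on at least 1 array, both on chromosome 3 were below 0 and all 3 on chromosome 5 were above 0. This division by cluster was chosen after the values were seen, and no gene of either cluster reached 2-fold.

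The other 5 measured genes differed by less than 2-fold. Xaf1, which opposes an inhibitor of apoptosis, had 149 in RANKhighFmslow cells and 209 in RANKlowFmshigh cells (-0.49). Rtp4, a chaperone of receptors, had 261 in RANKhighFmslow cells and 315 in RANKlowFmshigh cells (-0.27). Stat2, the ISGF3 subunit that is itself induced by interferon, had 196 in RANKhighFmslow cells and 231 in RANKlowFmshigh cells (-0.24). Ifi35 had 202 in RANKhighFmslow cells and 217 in RANKlowFmshigh cells (-0.10). Of these 5, Tap1 alone had a positive difference. Tap1, a subunit of the peptide transporter that loads MHC class I, had 190 in RANKhighFmslow cells and 154 in RANKlowFmshigh cells (0.30).

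Tap1 lies in a row of antigen processing genes on chromosome 17 whose differences alternated, in the order Psmb9, Tap1, Psmb8 and Tap2. The immunoproteasome subunit Psmb9 stood at 2337 in RANKhighFmslow cells and 3485 in RANKlowFmshigh cells (-0.58), and Psmb8 at 875 in RANKhighFmslow cells and 1155 in RANKlowFmshigh cells (-0.40). Tap2, the partner of Tap1, had 179 in RANKhighFmslow cells and 122 in RANKlowFmshigh cells (0.55). The transporter subunits were thus both above 0 and the proteasome subunits both below 0. Each of these differences was smaller than the 90th percentile of the gap between probe sets, 0.66. Psmb8 was included for its position, after the values were seen, and not by the size of its difference. Psme2, a gene of the same list on chromosome 14, had 824 in RANKhighFmslow cells and 1112 in RANKlowFmshigh cells (-0.43). Among all 9 genes of the list of immunoproteasome and peptide loading 0 reached 2-fold in either direction. Of all genes that passed the level filter 4.34% were that much higher and 4.26% lower.

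Upstream of these genes, the receptor for type II interferon differed most. Ifngr1 stood at 621 in RANKhighFmslow cells and at 1545 in RANKlowFmshigh cells, 2.49-fold lower, and Ifngr2 at 327 in RANKhighFmslow cells and at 738 in RANKlowFmshigh cells, 2.26-fold lower. Of the type I receptor, Ifnar2 had 1132 in RANKhighFmslow cells and 1919 in RANKlowFmshigh cells (-0.76). Ifngr1 and Ifngr2 were the only 2 of 10 measured receptor, kinase and STAT genes past 2-fold. The list had a median of -0.30, and 8 of the 10 were below 0. Among 8 measured interferon genes 0 passed 2-fold, beside 4.34% higher and 4.26% lower of all genes that passed the level filter. Ifng, made by T and NK cells, stood at 99.4 in RANKhighFmslow cells and 53.3 in RANKlowFmshigh cells, which is at least 1.22-fold higher, since the value in RANKlowFmshigh cells was not above the guide. Ifnk, of keratinocytes, was at least 1.56-fold lower with 70.7 in RANKhighFmslow cells, a value not above the guide, and 131 in RANKlowFmshigh cells. The Ifna5 probe set had 226 in RANKhighFmslow cells and 204 in RANKlowFmshigh cells (0.15), and genes of that family are too similar to be told apart with certainty.

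Of the adaptors and brakes of the pathway, 0 of 5 and 0 of 7 measured genes passed 2-fold. Of all genes that passed the level filter 4.34% were that much higher and 4.26% lower, so 0 in such short lists says little. The adaptor genes Tmem173, Mb21d1 and Traf3 had no probe set naming them alone and were not measured. Myd88, the adaptor of most Toll-like receptors, stood at 317 in RANKhighFmslow cells and 575 in RANKlowFmshigh cells (-0.86). The kinase genes Ikbke and Tbk1, which activate interferon regulatory factors, had differences of -0.68 and -0.40. Among the brakes Socs1, an inhibitor of Jak kinases, had 142 in RANKhighFmslow cells and 115 in RANKlowFmshigh cells (0.30), Ptpn6 had -0.30 and Pias1 -0.41. In the ISG15 system the activating enzyme Uba7 had 202 in RANKhighFmslow cells and 135 in RANKlowFmshigh cells (0.58). Its conjugating enzyme Ube2l6 had 303 in RANKhighFmslow cells and 175 in RANKlowFmshigh cells (0.80), and the ligase-family gene Herc1 had 0.54. The list of further genes held Uba7, Ube2l6, Herc1, Herc3 and Herc4. None of these 5 reached 2-fold, and 4 of them were above 0. Among the 4 are Herc1 and Herc3, relatives of Herc6 whose part in the ISG15 system was not examined here.

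Interferon-induced genes outside the set of 42 had a median nearer 0. Over 73 such genes that were measured, 37 were below 0 (50.7%) and the median was -0.04. Of these 73, 10 were not above the background guide on either array, against 1 of the 38 measured genes of the set. Among genes that passed the level filter, 34 of 62 were below 0, against 27 of 37 in the set and 51.1% of all that passed. The 73 also hold Herc1, Herc3 and Herc4, listed as relatives of the ligase gene Herc6. Of the 62 that passed the level filter 9 were lower by 2-fold or more (14.5%, beside 4.26% of all genes) and 3 higher by that much (4.84%, beside 4.34%). All these counts go by measured values, and the 9 include Ifi205, for which only a bound under 2-fold can be stated. All 4 measured genes of the IFI200 family, whose products bind DNA, were below 0. Ifi202b stood at 203 in RANKhighFmslow cells and at 1139 in RANKlowFmshigh cells, 5.62-fold lower. Ifi205 stood at 50.7 in RANKhighFmslow cells, not above the guide, and at 166 in RANKlowFmshigh cells, at least 1.98-fold lower. Aim2, the DNA sensor of an inflammasome, had 933 in RANKhighFmslow cells and 1390 in RANKlowFmshigh cells (-0.57). Of the further Oas1 genes only Oas1c was above the guide, with 118 in RANKhighFmslow cells and 83.4 in RANKlowFmshigh cells (0.51), and Irgm1, an immunity-related GTPase, had 0.12.

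The chemokine gene Ccl5 had the highest difference of these genes, at 1063 in RANKhighFmslow cells and 240 in RANKlowFmshigh cells, 4.43-fold higher. T and NK cells make Ccl5, and the list of their markers is given below. The Schlafen genes, regulators of leukocyte growth that lie side by side on chromosome 11, were divided. Slfn5 stood at 121 in RANKhighFmslow cells and at 524 in RANKlowFmshigh cells, 4.33-fold lower, and Slfn2 at 300 in RANKhighFmslow cells and at 882 in RANKlowFmshigh cells, 2.94-fold lower. Slfn4 alone of the 7 went the other way, with 322 in RANKhighFmslow cells and 123 in RANKlowFmshigh cells, 2.61-fold higher. Ifi27l2a and Ifi27, neighbours on chromosome 12, also differed, the first 2.21-fold lower (1127 in RANKhighFmslow cells, 2493 in RANKlowFmshigh cells) and the second 2.59-fold higher (1205 in RANKhighFmslow cells, 464 in RANKlowFmshigh cells). Slfn4, Ifi27l2a and Ifi27 were chosen after their values were seen.

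**Figure D5:**
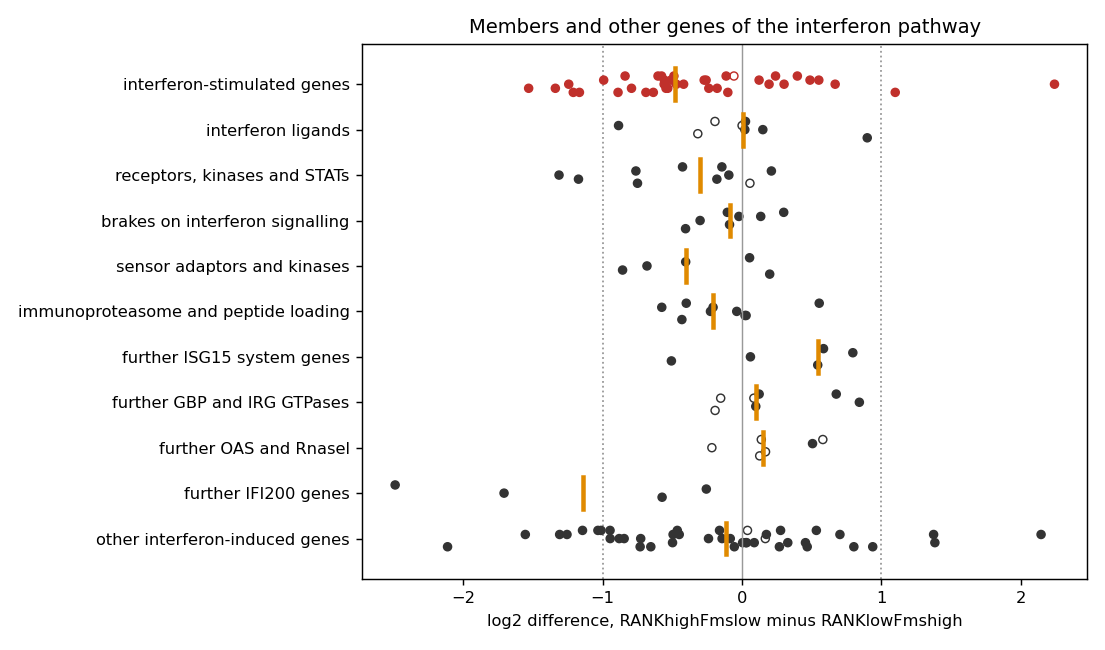
Log2 difference, RANKhighFmslow minus RANKlowFmshigh (horizontal axis), of the measured interferon-stimulated genes (top row) and of the measured genes of 10 further interferon lists, 1 dot per gene. Open dots are genes below the background guide on both arrays, bars are list medians and dotted lines mark 2-fold; the top row has its bar at -0.48 and the IFI200 genes theirs at -1.14.

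The populations also differed in markers of cell types. In RNA of a mixed population, fewer cells of a type and less RNA per cell cannot be told apart. All 6 measured monocyte markers were at least 2-fold lower, with a summed intensity of 3113 in RANKhighFmslow cells and 16277 in RANKlowFmshigh cells, and none was below the background guide. The 6 include Csf1r, which encodes the sort receptor c-Fms, so its lower value is not independent of the sort. The monocyte markers were led by F13a1, at 517 in RANKhighFmslow cells and 4177 in RANKlowFmshigh cells, and Fn1, at 661 in RANKhighFmslow cells and 4187 in RANKlowFmshigh cells. Neutrophil markers reached that size upward in 8 of 11, with sums of 43940.2 in RANKhighFmslow cells and 14327 in RANKlowFmshigh cells. Csf3r, 1 of the 11, went the other way, with 298 in RANKhighFmslow cells and 377 in RANKlowFmshigh cells (-0.34). Retnlg stood at 3059 in RANKhighFmslow cells and 177 in RANKlowFmshigh cells, and Ly6g at 1581 in RANKhighFmslow cells and 156 in RANKlowFmshigh cells. All 9 measured B-lineage markers were at least 2-fold higher, with sums of 13581 in RANKhighFmslow cells and 3704 in RANKlowFmshigh cells. Pax5 led them with 1544 in RANKhighFmslow cells and 262 in RANKlowFmshigh cells, followed by Vpreb3 with 1532 in RANKhighFmslow cells and 284 in RANKlowFmshigh cells. The 6 measured erythroid markers were all at least 2-fold higher, with sums of 8456 in RANKhighFmslow cells and 1801 in RANKlowFmshigh cells. Rhag had 1164 in RANKhighFmslow cells and 196 in RANKlowFmshigh cells, and Ermap 1888 in RANKhighFmslow cells and 347 in RANKlowFmshigh cells. The 5 eosinophil and basophil markers were likewise all at least 2-fold higher, with sums of 13217 in RANKhighFmslow cells and 1409 in RANKlowFmshigh cells. Prg3 had 2582 in RANKhighFmslow cells and 172 in RANKlowFmshigh cells, and Prg2 7858 in RANKhighFmslow cells and 661 in RANKlowFmshigh cells. In the T and NK cell list 5 of 9 did so, with sums of 2997 in RANKhighFmslow cells and 1062 in RANKlowFmshigh cells. Cd3d had 596 in RANKhighFmslow cells and 96.7 in RANKlowFmshigh cells, and Cd3g 438 in RANKhighFmslow cells and 111 in RANKlowFmshigh cells. Cd4 and Ncr1 were below the guide on both arrays. Isg20, Rsad2, Ccl5 and Slfn4 had the direction of most granulocyte, lymphoid and erythroid markers. Mx1, Oasl2, Zbp1, Trim30a and Ifitm2 had that of the monocyte markers. With 1 array per population every gene has either the one direction or the other, so a shared direction links no gene to a cell type. The part of these cell types in the interferon-stimulated genes was not tested.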

How the data were processed

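Gene expression was measured on single-channel arrays, 1 for RANKhighFmslow and 1 for RANKlowFmshigh bone marrow cells. The deposited values are linear intensities of 28815 probe sets, made by the authors with GCOS 1.4 and RMA per the submitters' processing notes; the sources used here give no order or settings of these steps and no genome build. The analysis plan allowed for log2 values, and the intensities were converted to log2 with no pseudocount or further scaling (pandas 2.3.3, numpy 2.4.6). The platform annotation of 2016 assigns 21780 probe sets to 1 gene, 1605 to several (not used) and does not list 5430. Of the 21780, Entrez identifiers of 21689 were found in the GRCm38.p6 gene table. Probe sets of a gene were averaged on the log2 scale.

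Arrays have no sequencing depth; the precision is limited by their number. All measured genes of the set of 42 are described, with up to 3 genes of each of 10 pathway lists by largest absolute difference among those above the background guide, and up to 2 markers of each cell type. The 42 genes and all lists were chosen with earlier results of these data known. Where a gene's lower value was below the guide, its fold is the higher value over the guide, written "at least". The counting rule was tested on simulated data. Alternatives were other level filters, the highest probe set of each gene, median centring, quantile and loess normalization (statsmodels 0.14.6) and a pseudocount of 50.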

Additional observations from a re-analysis of the deposited data

How the results depend on the processing

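Under 7 alternative settings (no level filter, a filter at the background guide, the highest probe set of each gene, median centring, quantile normalization, loess normalization and 50 added before log2) none of the 38 measured genes changed the sign of its difference. Several of these settings could hardly change a sign. The level filters leave each difference as it is, and 50 added cannot reverse a gene with 1 probe set. The highest probe set alters only genes with several, and median centring shifts every gene by the same 0.03. The median of the genes stayed between -0.51 (median centring) and -0.38 (50 added). The number at least 2-fold lower was 5 in the main setting, 6 with median centring, where Parp14 passed as well, and 4 with 50 added, where Zbp1 did not pass. The number at least 2-fold higher was 2, except that it was 1 with 50 added, where Rsad2 did not pass; an added constant draws low intensities together by construction. No scaling moved the median of all genes by more than 0.03. No paired analysis was possible because each population has 1 array, and no replicate could be left out. With 1 array per population the spread between samples is unknown, and Cmpk2 was below the background guide on both arrays.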
